A study of Passer montanus with 72 samples.

Results

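The transcription factor genes SIX3, DBX1, NR2F2, PROX1, DACH1 and DACH2 were taken from the gene count table by their names and followed across brain regions and labelled sexes. They had been chosen by their measured difference between caudal and rostral hippocampus in these libraries. All 6 names were found among the 21957 genes of the table. The birds were captive Eurasian tree sparrows (Passer montanus) taken from the wild, 24 in all, of which 11 were labelled female and 13 male. Each bird gave 3 RNA-seq libraries, from the caudal hippocampus, the rostral hippocampus and the striatum, for 72 libraries in 6 groups. No treatment or age is named in the labels, and behaviour was not analysed here. The libraries are labelled caudal and rostral hippocampus, whereas the design text of the series calls the hippocampal parts dorsal and rostral. The names used below are those of the library labels.

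The avian hippocampus is the dorsomedial part of the pallium and serves spatial memory, and the striatum below it is a subpallial region built mainly of medium spiny neurons. SIX3, DACH1 and DACH2 belong to the network first worked out in the Drosophila eye, in which homeodomain proteins of the SIX3 family, EYA cofactors and DACH corepressors act together. SIX3 shapes the anterior neural plate and, in the mouse, the medium spiny neurons of the indirect pathway. NR2F2 (COUP-TFII) is an orphan nuclear receptor of caudal and ventral telencephalic territories in the mouse. PROX1 is a homeodomain factor of dentate granule cells, of interneurons born in the caudal ganglionic eminence and of lymphatic endothelium in mammals. DBX1 is a homeodomain factor of embryonic progenitors, among them those at the edge of the pallium that give rise to Cajal-Retzius cells in the mouse.

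Library totals ran from 2629433 to 4461916 counts in the caudal, 3422268 to 5323201 in the rostral and 3319685 to 4895476 in the striatal libraries. Levels are given as CPM, counts scaled to the effective library size. The striatal label was checked against 14 medium spiny neuron markers. Their summed level was 411 to 640 CPM in the caudal, 445 to 668 CPM in the rostral and 4023 to 6848 CPM in the striatal libraries. Striatum and hippocampus did not overlap. The caudal and rostral ranges did, so these markers do not check the caudal and rostral labels. The bird numbered 260, labelled female, had 0 counts of the W-linked gene CHD1W in its 3 libraries. The 10 other birds labelled female had 101 to 216 counts, and the birds labelled male had at most 3. Bird 260 was kept in its labelled group, and for the chosen factors the results on sex that passed are also given without it. Results on sex for all other genes and marker lists are given only with bird 260 among the females.

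The genes lie on 5 assembled sequences. NR2F2 (identifier 100190054) spans positions 15894902 to 15910134 on the plus strand, DACH1 (100224395) 47740483 to 48093618 on the plus strand, DACH2 (100225039) 3678466 to 3919865 on the minus strand and DBX1 (100222532) 6198887 to 6204019 on the minus strand of their sequences. SIX3 (100228710, 96404769 to 96420717, minus strand) and PROX1 (100232600, 101088198 to 101137931, plus strand) share a sequence, 4.67 Mb apart. All are annotated as protein coding, and none shares a sequence with the Z-linked or W-linked genes looked up. Positions are those of the deposited table, whose genome build is not given in the sources used here. In the RefSeq gene list of the tree sparrow 0 of the deposited identifiers were found, and 34 of the deposited gene descriptions name the zebra finch. The positions, the distance and the shared sequences may therefore be those of another species' genome.

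SIX3, the homeodomain factor, was high in the caudal hippocampus and the striatum and low in the rostral hippocampus. Its lowest, median and highest levels were 35.0, 118 and 223 CPM in the 24 caudal libraries, 3.22, 15.9 and 37.5 CPM in the 24 rostral libraries and 63.8, 103 and 274 CPM in the 24 striatal libraries. The rostral and striatal libraries did not overlap, and the caudal library was above the rostral library in 24 of 24 birds, although the lowest caudal library (bird 8) fell within the rostral range. The rostral library was the lowest of the 3 in every bird, while the highest was caudal in 13 birds and striatal in 11. The caudal-to-rostral log2 fold was 2.99 ± 0.23 (SE of the fit to all 3 regions, 24 birds), a description only because that contrast chose the genes. The striatal-to-caudal log2 fold was -0.13 ± 0.20, with an approximate 95% interval of -0.53 to 0.27. In bulk tissue, fewer cells that hold a transcript and less transcript in each cell cannot be told apart.

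**Figure D1:**
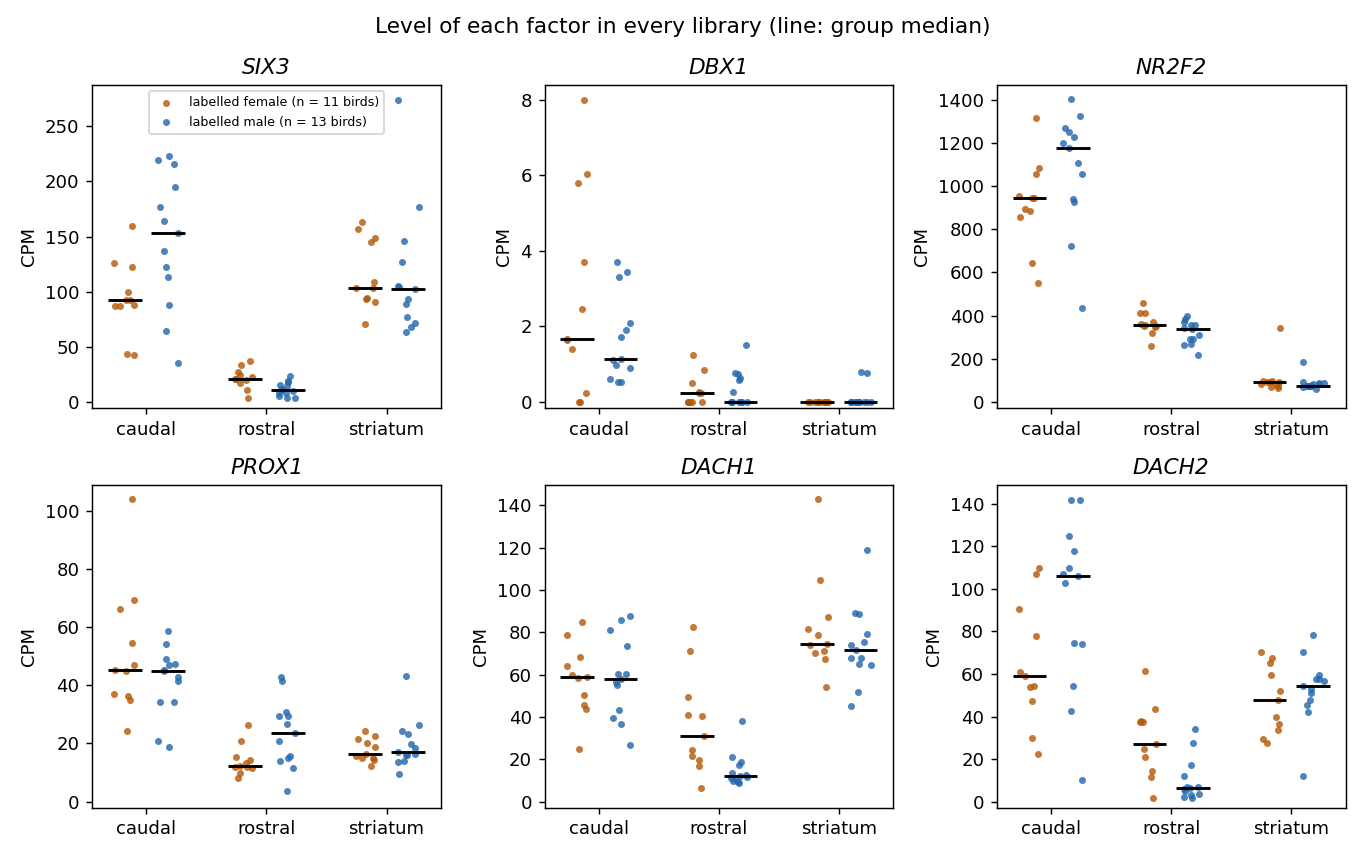
Level of each factor, in CPM on a linear axis, in every caudal, rostral and striatal library. Each point is 1 library, coloured by labelled sex, and the black line is the group median. NR2F2 steps down from caudal (median 1005 CPM) to rostral (352 CPM) to striatum (81.3 CPM), whereas SIX3, DACH1 and DACH2 are lowest in the rostral hippocampus.

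DACH1, a corepressor that partners proteins of the SIX3 family, was highest in the striatum, above its level in the caudal hippocampus. It stood at 24.8, 58.8 and 87.6 CPM (lowest, median, highest) in the caudal, 6.45, 17.9 and 82.7 CPM in the rostral and 45.2, 74.0 and 143 CPM in the striatal libraries. The 3 regions overlapped. The striatum was the highest region in 18 birds, the caudal hippocampus in 5 and the rostral hippocampus in 1. The caudal library exceeded the rostral one in 21 birds, the exceptions being birds 4, 8 and 18. Its caudal-to-rostral log2 fold was 1.43 ± 0.19 (SE of the fit, 24 birds).

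DACH2, its paralogue, had the widest rostral spread of the 5 genes with counts in every library. Its lowest, median and highest levels were 10.1, 76.2 and 142 CPM in the caudal, 1.67, 13.2 and 61.3 CPM in the rostral and 12.1, 52.5 and 78.3 CPM in the striatal libraries. The regions again overlapped. The SD of the rostral libraries was 87.1% of their mean, against 46.4% in the caudal and 30.7% in the striatal libraries. DACH2 was highest in the caudal hippocampus in 18 birds, and the caudal library exceeded the rostral one in 20, the exceptions being birds 4, 8, 14 and 18. Its caudal-to-rostral log2 fold was 2.22 ± 0.32 (SE of the fit, 24 birds). The difference between a bird's own 2 hippocampal libraries ran from -1.72 in bird 8 to 6.04 in bird 12 on the log2 scale, with an SD of 2.17.

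NR2F2, the nuclear receptor, had the highest hippocampal level of the 6 per gene length and followed one order in every bird, caudal above rostral above striatum. It was present at 435, 1005 and 1402 CPM (lowest, median, highest) in the caudal, 219, 352 and 456 CPM in the rostral and 59.6, 81.3 and 342 CPM in the striatal libraries. Caudal and striatal libraries did not overlap. The caudal library was highest and the striatal library lowest in 24 of 24 birds. The caudal-to-rostral log2 fold was 1.54 ± 0.12 (SE of the fit, 24 birds). In the striatum 2 birds stood above the rest, bird 6 at 342 CPM and bird 16 at 187 CPM. The striatal library of bird 6 also had the highest summed oligodendrocyte markers (1597 CPM, median 607 CPM) and the lowest summed medium spiny neuron markers (4023 CPM, median 5820 CPM) of the 24. The striatal library of bird 16 had the highest summed septal markers (270 CPM, median 122 CPM) and the lowest summed pallial markers (1078 CPM, median 2125 CPM). The part of these markers in the NR2F2 values was not tested.

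PROX1, the prospero-related homeodomain factor, was highest in the caudal hippocampus and low in both other regions. Its levels were 18.9, 45.1 and 104 CPM (lowest, median, highest) in the caudal, 3.64, 15.2 and 42.7 CPM in the rostral and 9.66, 16.8 and 43.2 CPM in the striatal libraries. Rostral and striatal ranges largely coincided, and both overlapped the caudal range. The caudal library was the highest in 22 of 24 birds and above the rostral one in 23, bird 3 being the exception. The log2 fold was 1.28 ± 0.16 (SE of the fit, 24 birds) from rostral to caudal. It was 0.05 ± 0.17 from rostral to striatum, with an approximate 95% interval of -0.28 to 0.37. The highest caudal value, 104 CPM, came from bird 260.

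DBX1, the progenitor factor, was close to the limit of detection and is given as raw counts. It had 180 counts over the 24 caudal libraries (0 to 22 per library, 22 libraries with a count), 34 over the rostral libraries (0 to 7, 12 with a count) and 6 over the striatal libraries (0 to 3, 2 with a count). Its caudal library was above the rostral one in 21 birds by CPM, and the ranges overlapped. The fitted caudal-to-rostral log2 fold was 2.72 ± 0.45. DBX1 passed the filter on low counts only through its caudal libraries, so no test is given for it.

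Per kilobase of the gene length in the table, the median caudal levels were ordered NR2F2 (175 CPM per kilobase), SIX3 (37.9), DACH2 (26.3), DACH1 (10.3), PROX1 (5.37) and DBX1 (0.591). The rostral order was the same. In the striatum SIX3 led at 33.1 CPM per kilobase, followed by DACH2 (18.1), NR2F2 (14.2), DACH1 (13.0) and PROX1 (2.00), and the DBX1 median was 0.

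Each gene was higher in the caudal than the rostral hippocampus of 20 to 24 of the birds, which is no test of the label of the group as caudal factors. That contrast chose the genes, and 45.6% of the 10445 genes tested passed an adjusted p under 0.05 in it, so nothing is read from the calls of the factors there. The caudal median was the highest of the 3 regions for all but DACH1. As a description, the striatal-to-caudal log2 fold was -3.47 ± 0.13 for NR2F2, -1.24 ± 0.16 for PROX1 and -0.69 ± 0.29 for DACH2, against 0.38 ± 0.18 for DACH1 and the value near 0 given above for SIX3.

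Striatal levels were then set against the average of the caudal and rostral levels, a contrast that the choice of genes did not use. Of the 5 factors tested, SIX3 and DACH1 were higher in the striatum, NR2F2 and PROX1 were lower, and DACH2 did not pass, so 4 of 5 were called beside 62.6% of all genes tested (29.5% higher and 33.1% lower). That share is near the background. NR2F2 fell by 2.70 ± 0.12 on the log2 scale (edgeR quasi-likelihood test, adjusted p = 8.33e-28) and was lower in 24 of 24 birds. SIX3 rose by 1.36 ± 0.17 (adjusted p = 8.66e-10), with the striatum above the hippocampal mean in 21 birds. DACH1 rose by 1.10 ± 0.15 (adjusted p = 7.62e-09), in 23 birds. PROX1 fell by 0.60 ± 0.15 (adjusted p = 0.000379), in 22 birds. For DACH2 the log2 difference was 0.42 ± 0.25 (adjusted p = 0.143), with an approximate 95% interval of -0.07 to 0.91. For SIX3, DACH1 and DACH2 the hippocampal average joins a high caudal and a low rostral level.

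Sex was examined next, within each region. In the rostral hippocampus the DACH genes were lower in birds labelled male. DACH1 stood at 6.45, 31.1 and 82.7 CPM (lowest, median, highest) in the 11 birds labelled female and 8.92, 11.9 and 38.2 CPM in the 13 labelled male. DACH2 stood at 1.74, 27.1 and 61.3 CPM in females and 1.67, 6.57 and 34.3 CPM in males. In both genes the ranges overlapped, with bird 22 lowest among females and bird 8 highest among males. DACH1 fell by 1.30 ± 0.30 on the log2 scale from female to male (edgeR, adjusted p = 0.00812) and DACH2 fell by 1.5 ± 0.43 (adjusted p = 0.0372). These 2 of 5 tested factors were called beside 5.29% of the 9003 genes tested in the rostral hippocampus, or 1.94% in the lower direction. Without bird 260 the log2 differences were -1.38 (adjusted p = 0.00356) and -1.58 (adjusted p = 0.0265).

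SIX3 and PROX1 did not pass in the rostral hippocampus, and their differences pointed in opposite directions. SIX3 levels were 3.23, 21.2 and 37.5 CPM in females and 3.22, 10.8 and 23.7 CPM in males, a log2 difference of -0.92 ± 0.30 (edgeR, adjusted p = 0.0688). PROX1 levels were 8.18, 12.3 and 26.5 CPM in females and 3.64, 23.6 and 42.7 CPM in males, a log2 difference of 0.72 ± 0.26 (adjusted p = 0.101). For NR2F2 the medians were 355 and 340 CPM and the log2 difference was -0.17 ± 0.09 (adjusted p = 0.307). Ranges of the sexes overlapped for all 3 genes. DBX1 failed the filter in each region when sexes were compared, with 13 counts in the female and 21 in the male rostral libraries, and a difference was not detectable at this depth.

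The call for DACH2 rested on a narrow margin and that for DACH1 did not. Leaving out birds 2, 3, 4, 6, 7, 10, 14, 15, 16, 17, 18, 19, 20 or 262, each alone, moved DACH2 above the threshold, with log2 differences from -1.81 to -1.33 and adjusted p-values from 0.00643 to 0.0818 over the alternatives tried. DACH1 kept its call under all 28 alternatives (log2 -1.5 to -1.11). SIX3 passed without bird 8, 13, 22 or 261 and with DESeq2 (adjusted p = 0.0305), and PROX1 without bird 11 or 22, over ranges of adjusted p from 0.0102 to 0.142 and from 0.0208 to 0.171.

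Single genes of some cell type lists also differed between the sexes in the rostral hippocampus, beside 5.29% of all genes tested there. The lists of medium spiny neurons, pallial glutamatergic neurons, oligodendrocytes, microglia and erythrocytes held no call. Neither did those of septum, of thalamus and habenula, or of vessels and meninges. Of the tested markers of Cajal-Retzius cells, 1 of 4 was higher in males (NHLH2, log2 1.48, adjusted p = 0.0298) and 1 was lower (CALB2, -0.67, adjusted p = 0.0414). Their summed level was 327 to 615 CPM in females and 226 to 501 CPM in males. Of the astrocyte markers 1 of 8 was higher (FABP7, log2 1.21, adjusted p = 0.0239), with sums of 3926 to 5095 CPM in females and 3654 to 6269 CPM in males. Of the GABAergic markers 1 of 7 was higher (SST, 0.84, adjusted p = 0.0111), with sums of 1253 to 1925 and 1106 to 2208 CPM. Of 12 tested genes of interneurons from the medial ganglionic eminence of mammals, 2 were higher in males, SST and NPY (1.16, adjusted p = 0.0167). Lower were 4 of the same 12, beside 1.94% of all genes in that direction. Among them were NKX2-1 (-0.93, adjusted p = 0.0401), SATB1 (-0.75, 0.0368) and MAF (-0.51, 0.0397). KL, 1 of 3 markers of the ependyma and choroid plexus, was lower (-1.42, adjusted p = 0.0263), with sums of 166 to 323 and 115 to 279 CPM, and CLIC6 of that list was at 0 throughout. LYVE1, 1 of 3 markers of lymphatic endothelium, was higher (1.38, adjusted p = 0.0496), with sums of 228 to 316 and 194 to 381 CPM. That sum also holds PROX1 itself, left out of the 3, and RELN, which is among the Cajal-Retzius markers too. The part of these markers in the DACH1 and DACH2 values was not tested.

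In the caudal hippocampus none of the 5 tested factors passed between the sexes, beside 2.69% of 8846 genes. SIX3, at an unadjusted p of 0.0116, was the 1 factor under 0.05 before adjustment, and DESeq2 also called 0 of 5. SIX3 stood at 42.3, 92.2 and 160 CPM (lowest, median, highest) in females and 35.0, 153 and 223 CPM in males, with overlapping ranges. Its log2 difference was 0.63 ± 0.24 (edgeR, adjusted p = 0.191), and it passed when bird 8, the lowest male, was left out (adjusted p = 0.0401, in a range of 0.0401 to 0.293 over the alternatives). DACH2 had medians of 59.1 CPM in females and 106 CPM in males and a log2 difference of 0.52 ± 0.28 (adjusted p = 0.423). For NR2F2, PROX1 and DACH1 the log2 differences were 0.23, -0.31 and 0.02, and the DACH1 interval was -0.33 to 0.36. Without bird 260, the highest caudal female for SIX3 and PROX1, the log2 differences were 0.74 and -0.15 (edgeR adjusted p = 0.0958 and 0.795). The count called was again 0. The summed ependyma and choroid plexus markers of the caudal libraries had medians of 207 CPM in females and 836 CPM in males. The part of that tissue in the caudal levels of the factors was not tested.

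In the striatum no factor passed between the sexes. SIX3 medians were 103 CPM in females and 102 CPM in males, and its log2 difference was -0.00 ± 0.20 with an approximate 95% interval of -0.39 to 0.39. The count was 0 of 5 tested, beside 1.69% of 8750 genes, with an adjusted p of 0.999 for each in edgeR. At an unadjusted p under 0.05 there were 0 of 5, and DESeq2 called 0 of the 4 to which it gave an adjusted p. The log2 difference of NR2F2 was -0.32 ± 0.22, which became 0.03 without bird 6, the bird with the high striatal NR2F2.

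**Figure D2:**
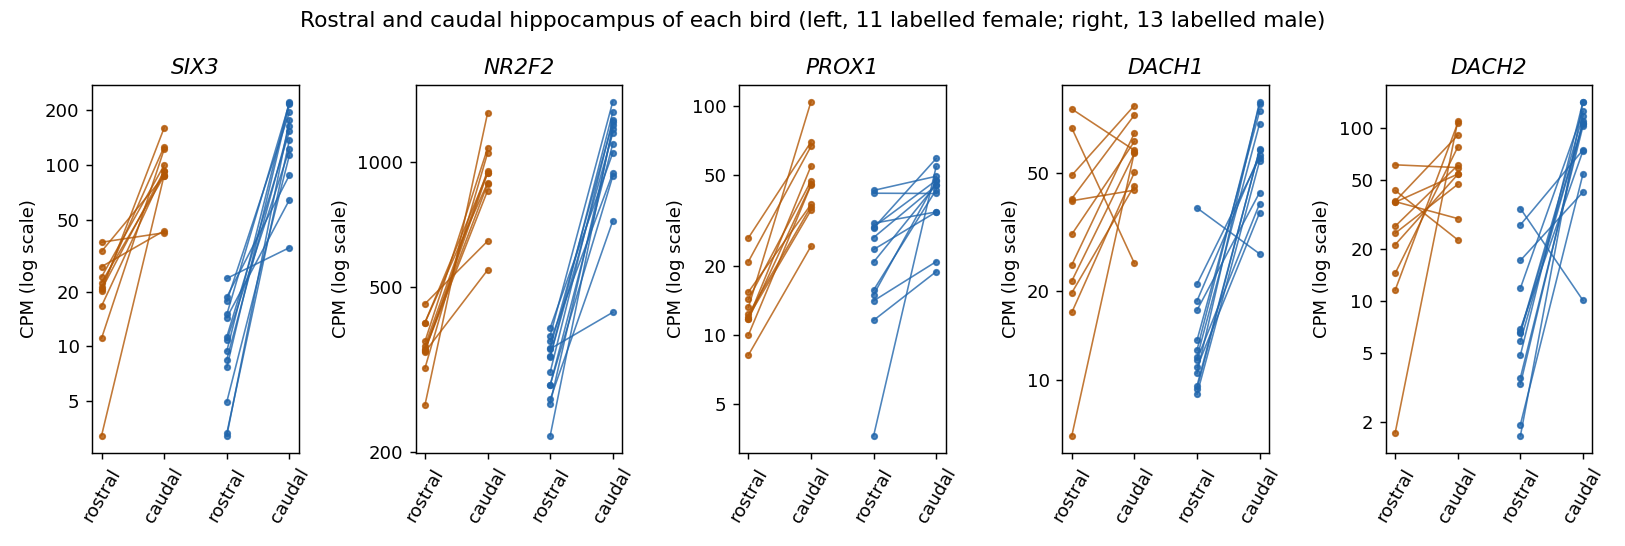
Rostral and caudal level of each factor in the same bird, in CPM on a log axis, with 1 line per bird, labelled females on the left and labelled males on the right of each panel. Lines are steeper in males for SIX3, DACH1 and DACH2, and DACH2 falls from rostral to caudal in birds 4, 8, 14 and 18.

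The caudal-to-rostral difference itself was then compared between the sexes. It was larger in males for SIX3, DACH1 and DACH2, which were the 3 of 5 tested factors called, beside 2.3% of the 10445 genes, or 1.35% in that direction. For DACH2 the caudal-to-rostral log2 fold was 1.15 ± 0.39 in females and 3.36 ± 0.40 in males, a difference of 2.21 ± 0.56 (edgeR interaction term, adjusted p = 0.0249). The SIX3 log2 fold was 2.18 ± 0.29 in females and 3.72 ± 0.29 in males, a difference of 1.53 ± 0.40 (adjusted p = 0.0271). DACH1 had log2 folds of 0.81 ± 0.24 and 2.02 ± 0.23, a difference of 1.22 ± 0.34 (adjusted p = 0.0395). Within each sex the ranges over birds were wide and overlapped, from -0.93 to 5.63 on the log2 scale in females and from -1.72 to 6.04 in males for DACH2. The SDs of these differences were 1.83 in females and 2.03 in males for DACH2. They were 1.23 and 1.38 for SIX3, and 1.19 and 0.94 for DACH1. The standard errors and p-values above rest on a spread pooled over the 3 regions, and a test on these SDs was not run. The caudal library exceeded the rostral one for DACH2 in 8 of 11 females and 12 of 13 males.

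PROX1 differed in the other direction without passing. Its log2 fold was 1.82 ± 0.23 in females and 0.85 ± 0.20 in males, a difference of -0.98 ± 0.30 (edgeR, adjusted p = 0.069). NR2F2 had log2 folds of 1.33 ± 0.17 in females and 1.71 ± 0.16 in males, and the difference of 0.37 ± 0.23 did not pass (adjusted p = 0.421, approximate 95% interval -0.08 to 0.82). PROX1 passed with DESeq2 (adjusted p = 0.0364) and without bird 8, 11 or 22, in a range of adjusted p from 0.00716 to 0.15.

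Several of these interaction calls depended on single birds. Without bird 260 the differences were 1.63 for SIX3, 1.29 for DACH1 and 2.42 for DACH2, and all 3 passed. DACH2 lost its call without bird 7, 14 or 18 (adjusted p up to 0.0655 over the alternatives). SIX3 lost it without bird 1, 2, 6, 7, 9, 14, 18 or 20 (up to 0.0691). DACH1 lost it in 16 of the 24 fits that each left out 1 bird, namely 2, 3, 4, 6, 7, 9, 10, 12, 14, 15, 16, 17, 18, 19, 20 and 262 (up to 0.116), and also without birds 260, 261 and 262 together (0.0593). The direction held in all of these fits, with log2 differences from 1.98 to 2.6 for DACH2, 1.36 to 1.75 for SIX3 and 0.99 to 1.44 for DACH1. The summed level of the ependyma and choroid plexus markers was 109 to 290 CPM (median 207) in female caudal libraries. In male caudal libraries it was 115 to 2780 CPM (median 836), and the highest female library ranked 10 of the 24. In the rostral libraries the sums were 166 to 323 CPM (median 232) in females and 115 to 279 CPM (median 203) in males. The ranges of the sexes overlapped in both parts, although the caudal median was far higher in males. Of 7 tested markers of that list 1 was called higher (KL) and 1 lower (FOXJ1), and CLIC6 was at 0 in every library. The marker lists of GABAergic neurons, pallial glutamatergic neurons, oligodendrocytes, microglia, erythrocytes, septum, and thalamus and habenula held no call along this contrast. The remaining marker lists held 1 call each. Lower were NHLH2 of 7 Cajal-Retzius markers (log2 -2.76, adjusted p = 0.0203), FABP7 of 8 astrocyte markers (-1.56, 0.00743) and LYVE1 of 3 markers of lymphatic endothelium (-1.66, 0.0273). Higher were TAGLN of 14 vascular and meningeal markers (2.32, adjusted p = 0.0254) and DRD1 of 14 medium spiny neuron markers (0.59, 0.0468). NPY, of the 12 interneuron genes of the medial ganglionic eminence, was lower (-1.87, adjusted p = 0.000117), as was TOP2A of the neuroblast and proliferation list (-4.30, 0.0443). The level behind the TOP2A value is not given here. Of the 14 tested genes of its list, 10 passed the filter on low counts within the caudal and 10 within the rostral libraries. The part of these cells and tissues in the result was not tested.

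**Figure D3:**
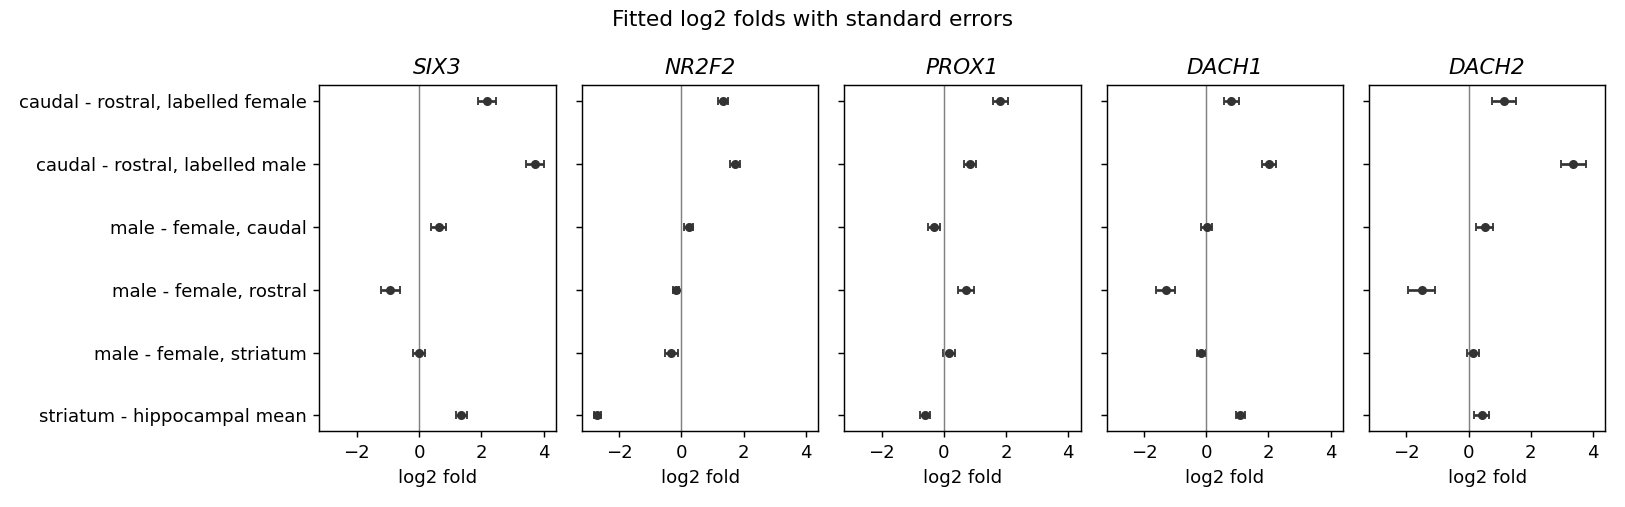
Fitted log2 folds of the 5 factors with counts in every library, with bars of 1 standard error on either side and a line at 0. The caudal-to-rostral folds are drawn separately for labelled females and males, and for DACH2 they are 1.15 and 3.36.

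The birds that went against the group did so in several of the genes. Bird 8, labelled male, had the lowest caudal level of all 24 birds for SIX3 (35.0 CPM), NR2F2 (435 CPM) and DACH2 (10.1 CPM) and the highest male rostral level for SIX3 (23.7 CPM), DACH1 (38.2 CPM) and DACH2 (34.3 CPM). Its PROX1 levels, 43.0 CPM caudal and 15.7 CPM rostral, were near the medians. Birds 14 and 18, labelled female, had the next lowest caudal SIX3 (42.3 and 43.4 CPM), NR2F2 (550 and 646 CPM) and DACH2 (22.6 and 30.0 CPM). Bird 22, labelled female, showed the reverse in the rostral hippocampus, with SIX3 at 3.23 CPM, DACH1 at 6.45 CPM and DACH2 at 1.74 CPM, the lowest of the females, beside the highest female PROX1 (26.5 CPM). In the rostral library of bird 8 the septal markers summed to 62.8 CPM, the highest of 24, and the vascular and meningeal markers to 276 CPM, the second highest. In its caudal library the medium spiny neuron markers summed to 590 CPM, the second highest of the 24 caudal libraries after bird 18 at 640 CPM, and bird 14 was at 506 CPM. Whether these markers bear on the levels was not tested. In the fit with all libraries none of the 5 factors tested passed for a difference among birds of a sex across regions in edgeR (adjusted p from 0.413 to 0.996, 0 of 5 at an unadjusted p under 0.05), beside 12% of all genes.

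Across the 24 birds SIX3, NR2F2 and DACH2 rose and fell together within the caudal hippocampus. Correlations were taken on log2 CPM for 15 pairs, with a permutation p adjusted over the 15, and points share library and depth. The factors were chosen for a shared difference that used these same caudal libraries, so the p-values are no evidence of a link between them. Genes outside the chosen factors reached such values too, as CPNE4 did with SIX3 (r = 0.93). Of the 10 pairs without DBX1, 6 passed by r, and 3 of these passed by rho too. NR2F2 and DACH2 gave Pearson r = 0.97 and Spearman rho = 0.91 (permutation adjusted p = 5e-05 for r and 7.5e-05 for rho), and r = 0.93 without the 2 birds farthest from the median NR2F2. SIX3 and NR2F2 gave r = 0.90 and rho = 0.85, and SIX3 and DACH2 gave r = 0.88 and rho = 0.77, with r of 0.84 and 0.81 without the 2 farthest birds (permutation adjusted p = 5e-05 for both r). After the mean of each sex was subtracted, these 3 pairs gave r of 0.96, 0.90 and 0.88. DACH1 gave lower values, with r = 0.63 to SIX3, 0.61 to DACH2 and 0.58 to NR2F2 (permutation adjusted p = 0.00397, 0.00603 and 0.0077), and rho of 0.48, 0.39 and 0.36. Without the 2 farthest birds these fell to 0.50, 0.29 and 0.40, and none of the rho values passed. PROX1 gave r between -0.19 and 0.03 with SIX3, NR2F2, DACH1 and DACH2, and none passed. Its r with DBX1 was 0.56, and 0.45 without bird 260, which rests on sparse counts and is given as a description.

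**Figure D4:**
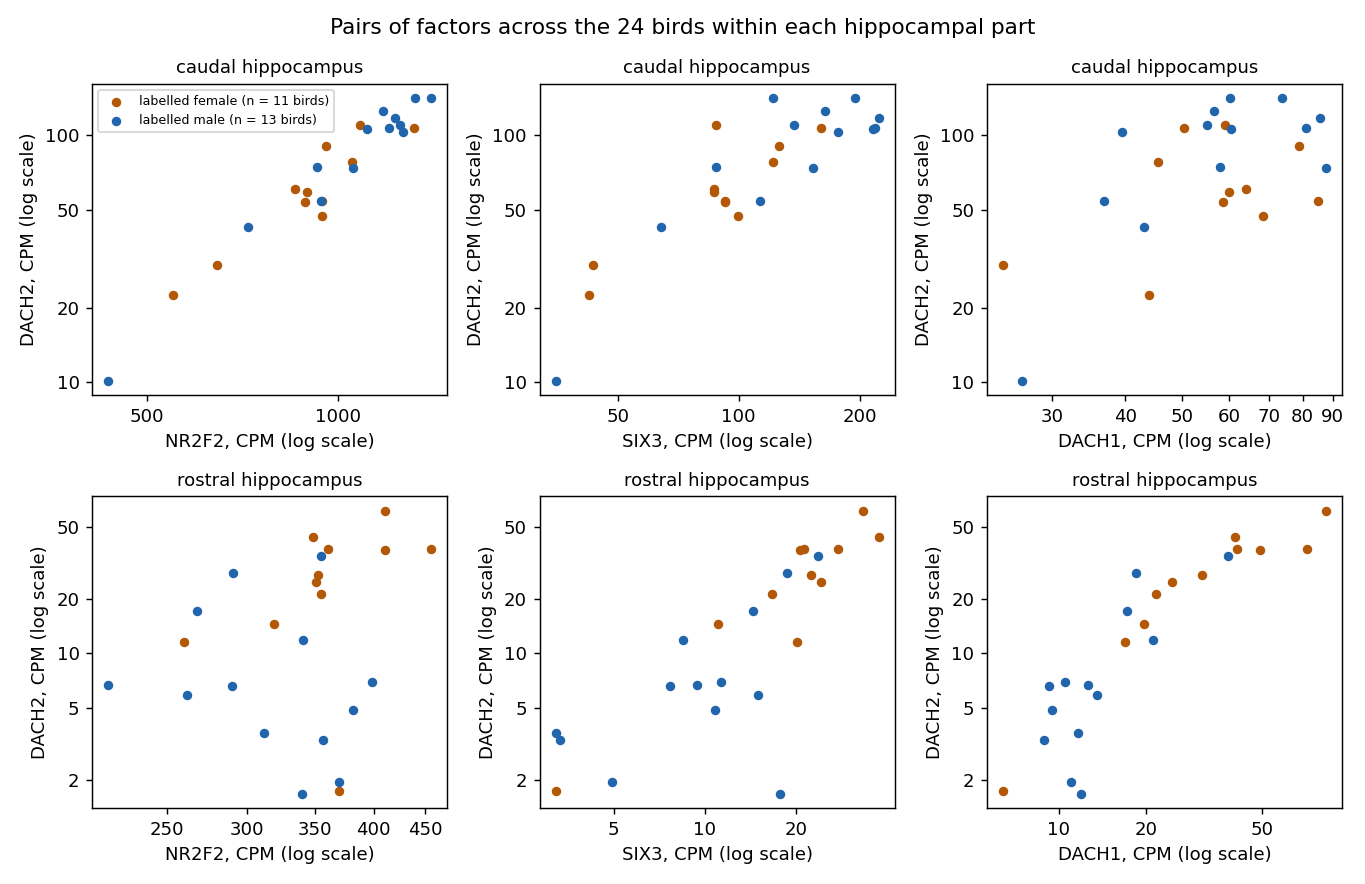
Level of DACH2 against NR2F2, SIX3 and DACH1 in the same library, both in CPM on log axes, in the caudal (top) and rostral (bottom) hippocampus, with 1 point per bird. In the caudal hippocampus DACH2 gives r = 0.97 with NR2F2, and in the rostral hippocampus it gives 0.90 with DACH1 and 0.23 with NR2F2.

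In the rostral hippocampus the highest values belonged to other pairs, a comparison added after the caudal values were seen. The rostral libraries also entered the choice of the factors, so the rostral p-values are no evidence of a link either. DACH1 and DACH2 gave r = 0.90 and rho = 0.92 (permutation adjusted p = 7.5e-05 and 5e-05), SIX3 and DACH2 gave 0.81 and 0.83, and SIX3 and DACH1 gave 0.79 and 0.85. These held with the sex means subtracted (r = 0.85, 0.75 and 0.72) and without the 2 farthest birds (r = 0.90, 0.77 and 0.78). NR2F2 and DACH2, the closest caudal pair, gave r = 0.23 and rho = 0.25 (permutation adjusted p = 0.42 and 0.389), and the difference between the 2 regions was not tested. PROX1 ran opposite to DACH2 (r = -0.57, rho = -0.52, permutation adjusted p = 0.0114) and to DACH1 (r = -0.49, rho = -0.59, 0.045). With the sex means subtracted these were -0.48 and -0.36 and did not pass (permutation adjusted p = 0.0604 and 0.207). In the striatum SIX3 and DACH2 ran opposite to each other (r = -0.74, rho = -0.59, permutation adjusted p = 0.0012 and 0.0408, r = -0.68 without the 2 farthest birds). Without bird 260 r was -0.76 (permutation adjusted p = 0.00105), whereas rho was -0.56 and no longer passed (0.0906). Bird 16 had both the highest striatal SIX3 (274 CPM) and the lowest striatal DACH2 (12.1 CPM), beside the high septal markers given above.

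A factor's caudal level was also set against its own rostral level over the birds, for 6 relations. The choice of the factors used the libraries of both parts, which limits these p-values too. DACH2 was lower in the rostral hippocampus of birds in which it was higher in the caudal hippocampus, with r = -0.62 and rho = -0.69 (permutation adjusted p = 0.00474 and 0.00168). The value was -0.61 without the 2 farthest birds and -0.60 with the sex means subtracted (permutation adjusted p = 0.0194). SIX3 gave r = -0.48 and rho = -0.57 (permutation adjusted p = 0.0501 and 0.0126), and r = -0.37 both without the 2 farthest birds and with the sex means subtracted (permutation adjusted p = 0.222 for the latter). Without bird 260, SIX3 gave r = -0.52 (permutation adjusted p = 0.0354). For NR2F2, DACH1 and PROX1 r was -0.30, -0.24 and 0.15, and none passed. The value for DBX1, 0.06, is a description.

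The genes most like each factor were ranked by Pearson r of log2 CPM over 9159 candidates, as a description with no p, since all libraries share the regions. Over all 72 libraries SIX3 was followed most closely by FIGN (r = 0.91), KCNS2 (0.86) and FAM20C (0.85), NR2F2 by genes that included LRP1B (0.94) and ID2 (0.93), and DACH1 by KCNS2 (0.92), MAPK6 (0.90) and RBFOX1 (0.89). DACH2 was followed by PTK2 (0.86), DACH1 (0.86) and MAPK6 (0.83), and PROX1 by DCAF6 (0.76), LYVE1 (0.71) and GNAT2 (0.70). DBX1 had no like gene above ANTXR2 (0.73). Within the 24 caudal libraries the closest gene to NR2F2 was DACH2 (0.97) and the second SIX3 (0.90), while SIX3 was closest to CPNE4 (0.93), DACH1 to TAFA1 (0.79) and PROX1 to KCNV1 (0.80). Within the 24 rostral libraries SIX3 was closest to PALLD (0.94), DACH1 to LHFPL6 (0.96), DACH2 to CDH9 (0.95), NR2F2 to TAF1 (0.74) and PROX1 to REV3L (0.79). LYVE1, a hyaluronan receptor of lymphatic endothelium, was itself higher in the caudal hippocampus (log2 1.58 ± 0.24, edgeR adjusted p = 5.21e-07), but FLT4, the lymphatic vascular growth factor receptor, was lower there (-2.6 ± 0.43, adjusted p = 2.46e-06).

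Of 9 tested relatives of the factors reported here, in the NR2F, SIX3, EYA and DBX families, 2 were higher and 1 was lower in the caudal than the rostral hippocampus, beside 23.1% and 22.5% of all genes. NR2F1 (COUP-TFI) is the paralogue of NR2F2. Its lowest, median and highest levels were 98.2, 168 and 282 CPM in the caudal, 60.5, 140 and 186 CPM in the rostral and 8.47, 21.7 and 69.6 CPM in the striatal libraries, so the hippocampal parts overlapped. Its log2 fold was 0.31 ± 0.11 from rostral to caudal (edgeR, adjusted p = 0.0163) and fell by 2.53 ± 0.11 in the striatum (adjusted p = 4.83e-28). NR2F1 was higher in males by 0.70 on the log2 scale in both the caudal (adjusted p = 8.78e-05) and the rostral hippocampus (adjusted p = 0.000238), and in the deposited table it lies on the sequence that carries the Z-linked genes looked up. NR2F6, the third of the family in the table, fell by 0.39 ± 0.14 in the caudal hippocampus (adjusted p = 0.0174).

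Of the other genes of the SIX3 family in the table, SIX2 and SIX4 did not pass between the hippocampal parts (edgeR adjusted p of 0.619 and 0.102), with medians of 1.68 to 3.34 CPM there. SIX2 fell by 2.62 ± 0.50 on the log2 scale in the striatum (adjusted p = 7.31e-06), the reverse of SIX3. Among the EYA cofactors 1 of 4 was higher in the caudal hippocampus, EYA3 (0.24 ± 0.08, adjusted p = 0.0129), which was also higher in the striatum (0.86 ± 0.07, adjusted p = 6.34e-17). EYA2 passed in neither contrast (adjusted p = 0.964 and 0.872). DBX2, the paralogue of DBX1, did not pass along the axis (-0.36 ± 0.32, adjusted p = 0.379), was lower in the striatum (-0.96 ± 0.31, adjusted p = 0.00566) and was higher in the rostral hippocampus of males (1.23 ± 0.37, adjusted p = 0.0474). PROX2 had 1 count in each region.

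Gene lists around the factors' known roles were counted in the caudal-to-rostral contrast with the 6 factors left out, beside the same shares of all genes and a median log2 fold of 0.02. Of 13 tested genes that mark dentate granule neurons in mammals, the cells that PROX1 specifies there, 0 were higher and 6 were lower in the caudal hippocampus, with a median log2 fold of -0.39. Among them C1QL3, a secreted synaptic organiser, fell by 1.54 ± 0.16 and SEMA5A, a guidance molecule, fell by 1.31 ± 0.24 (edgeR, adjusted p = 2.23e-10 and 1.22e-05). Of 10 tested genes of interneurons from the caudal ganglionic eminence, where NR2F2 and PROX1 act in mammals, 1 was higher (LAMP5, 0.36 ± 0.10) and 3 were lower, namely CNR1 (-1.33 ± 0.13), SP8 (-0.96 ± 0.21) and ADARB2 (-0.89 ± 0.14). Of 12 tested genes of interneurons from the medial ganglionic eminence 5 were higher, among them KCNC1 (0.62 ± 0.07) and SOX6 (0.33 ± 0.12), and 1 was lower (SATB1, -0.43 ± 0.17). Of 14 tested genes of neuroblasts and proliferation 6 were higher, among them SOX11 (0.84 ± 0.15) and SOX4 (0.83 ± 0.11), and 2 were lower, DCX (-0.85 ± 0.34) and DLX1 (-0.24 ± 0.10). The part of these cells in the levels of the factors was not tested.

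Septal factors, to which DBX1 and SIX3 are linked in development, were higher in 5 of 10 and lower in 0, with a median log2 fold of 0.65. The LIM factor LHX8 rose by 1.40 ± 0.44 and the zinc finger factors ZIC1 and ZIC2 rose by 0.55 ± 0.21 and 0.57 ± 0.14 (edgeR, adjusted p = 0.00708, 0.0283 and 0.000711). In the fits of a single region, 4 of the 10 passed the filter on low counts in the caudal and 4 in the rostral libraries. In the striatal libraries 9 passed, so several of these factors rested on few hippocampal counts, and their single levels are not given here. The summed level of 7 septal markers was 22.7 to 110 CPM in the caudal, 16.7 to 62.8 CPM in the rostral and 95.1 to 270 CPM in the striatal libraries, and CHAT, which makes acetylcholine, was at 0 in all hippocampal libraries. The part of septal tissue in the levels of the 6 factors was not tested. Other patterning factors of the pallium were split, 14 of 42 higher and 14 lower, with a median log2 fold of -0.05. The higher ones included CUX2 (1.10 ± 0.20), ID2 (0.90 ± 0.13), MEIS2 (0.65 ± 0.10) and NFIA (0.61 ± 0.08), and the lower ones NEUROD6 (-0.85 ± 0.25) and BCL11A (-0.83 ± 0.17).

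Retinoid genes, linked to the NR2F receptors through shared binding sites, were called higher in 3 of 11 and lower in 3 of 11 in the caudal-to-rostral contrast. In the rostral hippocampus 3 of 7 were lower in males, beside 1.94% of all genes, as were both DACH genes. These were ALDH1A2, the main enzyme of retinoic acid synthesis (-1.51 ± 0.39, edgeR adjusted p = 0.0203), RDH10, which makes its substrate (-0.95 ± 0.23, adjusted p = 0.0114), and the receptor RXRA (-0.60 ± 0.16, adjusted p = 0.0273). The interaction of sex with hippocampal part was called for ALDH1A2 (2.11 ± 0.50, edgeR adjusted p = 0.018), RXRA (0.90 ± 0.26, adjusted p = 0.0487) and RARA (0.64 ± 0.18, adjusted p = 0.0454). These were 3 of 11 tested, beside 1.35% of all genes in that direction, which was also that of SIX3, DACH1 and DACH2. NR2F2 was not called there. Of the 42 patterning factors of the pallium, 1 was called higher and 5 lower. Together these are a larger share than the 2.3% of all genes called in both directions together. Most of those called ran opposite to SIX3, DACH1 and DACH2. A link between these genes and the factors was not tested.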

How the data were processed

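The authors deposited 1 table of raw counts per gene for 72 libraries with gene lengths in bases, and the submitters' processing notes name HISAT2 and StringTie. The versions, counting tool, strand setting, annotation and build were not given in the sources used here. Reads of overlapping antisense genes therefore cannot be told apart. Counts were tested with edgeR 4.0.16 (R 4.3.3): TMM scaling, a filter on low counts (minimum count 10, total 15, which kept 10445 genes), quasi-likelihood tests, Benjamini-Hochberg adjustment and a threshold of 0.05. Bird was a block in comparisons of regions, because the labels give the same bird number to its 3 libraries. Sex was compared within each region (1 library per bird). A ± value on a log2 fold is its standard error in the fit, and approximate intervals are 1.96 standard errors. In fits with bird terms both rest on the spread pooled over the 3 regions. CPM used effective library sizes, and correlations used log2 CPM with a prior count of 2 and 100000 permutations (smallest p 1e-05). The scripts were tested on simulated data. The named genes were the 6 members, their families, gene lists around their roles and the 3 genes most like each member. Some genes that these rules name are not reported here. Members and lists were chosen with earlier results of these data known. Alternatives were DESeq2 1.42.0 as test, its size factors in edgeR, no filter, no block, the hippocampal libraries alone, leaving out each bird, and leaving out birds 260 to 262, whose numbers stand apart. P-values for sex within a region measure the spread between birds. Those of fits with bird terms measure the spread left after the fitted terms, pooled over the 3 regions. They do not measure the spread of the caudal-to-rostral differences alone.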

Additional observations from a re-analysis of the deposited data

Results flagged for a closer look

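The caudal-to-rostral difference was tested between birds labelled male and female, and 3 factors passed that test of the difference itself. The log2 difference of differences was 2.21 for DACH2, 1.53 for SIX3 and 1.22 for DACH1, each larger in males (edgeR interaction term, adjusted p = 0.0249, 0.0271 and 0.0395). These p-values rest on a spread pooled over the 3 regions, not on the spread of the caudal-to-rostral differences alone. The call was lost in 3 (DACH2), 8 (SIX3) and 16 (DACH1) of the 24 fits that each left out 1 bird. For DACH1 the sexes differed mainly in the rostral hippocampus, where its log2 difference between males and females was -1.30, against 0.02 in the caudal hippocampus. For SIX3 it was -0.92 rostral and 0.63 caudal, and for DACH2 -1.5 rostral and 0.52 caudal.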

How the results depend on the processing

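The caudal-to-rostral log2 folds of the 6 factors kept their direction, and the 5 tested kept their side of the threshold in the striatum contrast, under all alternatives run. The number of genes called for the interaction was 427 with DESeq2 and 130 with no replicate block, against 240, and 76 to 598 when 1 bird was left out, with 0 to 4 factors called. The fit with no replicate block called 3 of the factors, as with the pairing by bird. Leaving out 1 bird gave 310 to 951 genes and 1 to 4 factors for sex in the rostral hippocampus, 202 to 321 genes and 0 to 1 factors in the caudal hippocampus, and 136 to 226 genes in the striatum. Relations past the threshold between caudal and rostral levels were 2 without bird 260 (1 with it). With the sex means subtracted they were 3 within the rostral hippocampus (5 before) and 2 within the striatum (1 before). Directions changed for sex differences that did not pass: DACH1 in the caudal hippocampus (-0.06 to 0.08), SIX3 in the striatum (-0.18 to 0.06 leaving out 1 bird, 0.02 without birds 260, 261 and 262) and NR2F2 in the striatum (-0.32 in all birds, -0.48 to 0.03 leaving out 1, with 0.03 without bird 6). The cause was not tested. DBX1, with at most 22 counts in a library, is limited by depth.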
